A study of Homo sapiens with 12 samples.

Results

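Moesin, ezrin and radixin, the ERM proteins, and 6 of their closest partners were followed on expression arrays of 2 breast cancer cell lines in which protein kinase C δ (PKCδ, gene PRKCD) was knocked down. The members were all probes of the ERM genes MSN, EZR and RDX, of NF2, CD44 and NHERF1 (called SLC9A3R1 on older annotations), and of ROCK1, ROCK2 and RHOA, found by gene symbol and not by any measured value. These 9 genes had 17 of the 47323 probes on the array, and all 17 were among the 19439 probes kept after a detection filter (detection p under 0.01 on at least 3 of the 12 arrays). MDA-MB-468 and BT-549, both established lines, were transfected with an siRNA to PRKCD (siPRKCD) or with a control siRNA (siControl), and 3 samples of each of the 4 groups were hybridized to Illumina Human HT-12 v4 BeadChips. Each line is a single model, a transient knockdown was compared only with the control siRNA, and only 1 siRNA label was used for PRKCD, so an effect of the siRNA sequence and an effect of the lost kinase cannot be told apart. No untransfected cells were analysed here. Of the 2 lines, only BT-549 was kept by the study in medium with added insulin, so line and medium cannot be told apart where the lines are compared.

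ERM proteins tie the plasma membrane to the cortical actin cytoskeleton. In their closed form the amino-terminal FERM domain folds onto the actin-binding tail, and binding of membrane phosphoinositide together with phosphorylation of a conserved threonine near the carboxy terminus opens them. The open protein holds the cytoplasmic tails of receptors such as the hyaluronan receptor CD44, directly or through the PDZ scaffold NHERF1, while merlin, the product of the tumor suppressor gene NF2, is a FERM protein related to them that feeds into Hippo signaling. The GTPase RhoA and its kinases ROCK1 and ROCK2 act upstream in many cells, and protein kinase C enzymes are among the kinases reported for the ERM threonine. The arrays measured mRNA only, and neither protein nor phosphorylation was measured.

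MSN was 3.88-fold lower with siPRKCD in MDA-MB-468 and 2.65-fold lower in BT-549, and its probe was the only one of the 17 called in both lines. EZR did not pass the test in either line. Each of the other probes called was called in 1 line: NHERF1 and ROCK2 probe 2 fell and CD44 probe 2 rose in MDA-MB-468, whereas RDX and CD44 probe 1 fell and ROCK1 probe 1 rose in BT-549. MSN was one of the genes the study selected for being lowered by the siRNA, on these arrays among others, so its fall is not independent evidence of that effect. In the study the PRKCD siRNA served to induce cell death. MSN was silenced there too, among candidates whose siRNAs it described as acting on cell death less consistently than those to CALM3 and CLDND1.

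Both siRNA responses were read against the background of the whole array. In MDA-MB-468, 4 of 17 probes were called (1 higher and 3 lower) at an adjusted p under 0.05, where 21.6% of all tested probes were called (10.7% upward and 11% downward). In BT-549 it was again 4 of 17 (1 higher and 3 lower), where 21.5% of all probes were called (10.1% upward and 11.4% downward). The groups did not overlap for 7 of 17 probes in each line, against 35.6% of all probes in the former line and 37.8% in the latter. The median log2 difference of the 17 probes was 0.07 for MDA-MB-468 and -0.07 for BT-549, beside 0.015 and 0.007 over all probes. The number of calls among these genes was therefore near that of the array at large. Of all tested probes, 4.33% were called lower in both lines, a class that held 1 of the 17 member probes, that of MSN.

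The siRNA target was lowered in both lines. PRKCD probe 1 went from 9.03 ± 0.19 to 7.32 ± 0.14 log2 signal in MDA-MB-468 (mean ± SD, n = 3) and from 7.73 ± 0.03 to 6.86 ± 0.17 in BT-549. The log2 difference was -1.72 (SE 0.11, adjusted p 2e-07) in the former and -0.87 (SE 0.11, adjusted p 9.8e-05) in the latter, where the probe was detected on only 1 of the 3 siPRKCD arrays, so that the BT-549 value may be limited by the background. PRKCD probe 2 was not above background on any array. Every array detected between 15616 and 17724 probes, and arrays of the same group correlated at 0.987 to 0.997 on the log2 scale. Of 9 epithelial markers, 8 were detected on all arrays of each MDA-MB-468 group, while CDH1 alone was in BT-549. Of 10 mesenchymal markers, 9 were detected on all BT-549 arrays and 3 on all MDA-MB-468 arrays. Of the leukocyte and endothelial markers PTPRC, CD3E, PECAM1, CDH5, VWF and CD68, only CD68 was detected on all arrays.

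The sequences just upstream of the ERM genes are shown because MSN fell in both lines while EZR did not pass the test in either and RDX fell in BT-549. Each is the 250 bases before an annotated RefSeq start on GRCh38.p14, read 5′ to 3′ on the strand of the gene, and capitals mark matches on either strand to the 5 motifs searched. These were the GC box GGGCGG, the CCAAT box, the TATA box motif TATAAA, the E-box CACGTG and the AP-1 motif TGACTCA. Overlapping GGGCGG matches run together in the EZR and RDX windows. MSN lies on chromosome X, 65588377 to 65741931, on the plus strand, and RefSeq gives it more than one start. The EZR window lies inside the annotated EZR gene, before a start that is not its outermost one.
MSN, first start, chrX:65588127-65588376, plus strand: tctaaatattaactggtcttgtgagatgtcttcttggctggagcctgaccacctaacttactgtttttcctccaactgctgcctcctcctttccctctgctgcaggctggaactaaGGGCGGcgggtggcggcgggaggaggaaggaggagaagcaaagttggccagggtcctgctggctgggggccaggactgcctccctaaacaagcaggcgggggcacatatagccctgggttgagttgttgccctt
MSN, second start, chrX:65667404-65667653, plus strand: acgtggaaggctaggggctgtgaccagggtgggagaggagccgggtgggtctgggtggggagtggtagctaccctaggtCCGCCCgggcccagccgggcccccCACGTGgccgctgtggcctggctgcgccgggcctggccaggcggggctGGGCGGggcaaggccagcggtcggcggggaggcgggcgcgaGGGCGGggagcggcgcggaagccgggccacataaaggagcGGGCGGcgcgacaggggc
EZR, chr6:158818236-158818485, minus strand: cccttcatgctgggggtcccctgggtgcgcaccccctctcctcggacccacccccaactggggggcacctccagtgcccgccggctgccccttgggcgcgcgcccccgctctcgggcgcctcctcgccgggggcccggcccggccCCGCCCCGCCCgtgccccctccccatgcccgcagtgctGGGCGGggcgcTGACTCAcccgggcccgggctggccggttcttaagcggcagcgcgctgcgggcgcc
RDX, chr11:110296615-110296864, minus strand: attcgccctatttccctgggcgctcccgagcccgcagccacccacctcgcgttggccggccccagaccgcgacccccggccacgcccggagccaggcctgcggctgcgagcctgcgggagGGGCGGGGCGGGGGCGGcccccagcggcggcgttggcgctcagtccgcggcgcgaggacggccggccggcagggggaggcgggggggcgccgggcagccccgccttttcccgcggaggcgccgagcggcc

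The GGGCGG box was found once before the first MSN start, 4 times before the second, and 3 times each before EZR and RDX, whereas 42.6% of the 35116 windows of this length in the RefSeq table held it. CACGTG was matched once, before the second MSN start (6.34% of windows), and TGACTCA once, before EZR (4.2% of windows). CCAAT (32.0% of windows) and TATAAA (10.7%) were matched in none of the 4. The GC content was 57.2% before the first MSN start and 78.0% before the second, 80.8% before EZR and 82.0% before RDX. These matches describe the letters only, and the MSN probe does not tell which start its transcripts came from.

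Moesin is the ERM protein that is most abundant in many mesenchymal and blood cells. Its single probe read 9.79, 9.59 and 9.69 log2 signal in the 3 siControl samples of MDA-MB-468 and 7.79, 7.61 and 7.81 in the siPRKCD samples. The BT-549 samples read 10.93, 10.68 and 10.81 with siControl and 9.18, 9.46 and 9.57 with siPRKCD. Within each line all siPRKCD samples lay below all siControl samples, and the siPRKCD samples of BT-549, up to 9.57, came just short of the siControl samples of MDA-MB-468. The log2 difference was -1.96 in MDA-MB-468 (SE 0.11, 95% interval -2.20 to -1.72, adjusted p 4.6e-08), and in BT-549 it was -1.41 (SE 0.11, 95% interval -1.64 to -1.17, adjusted p 2.7e-06). Counted from the most lowered, MSN stood 9th of 19439 probes in MDA-MB-468 and 34th in BT-549.

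**Figure D1:**
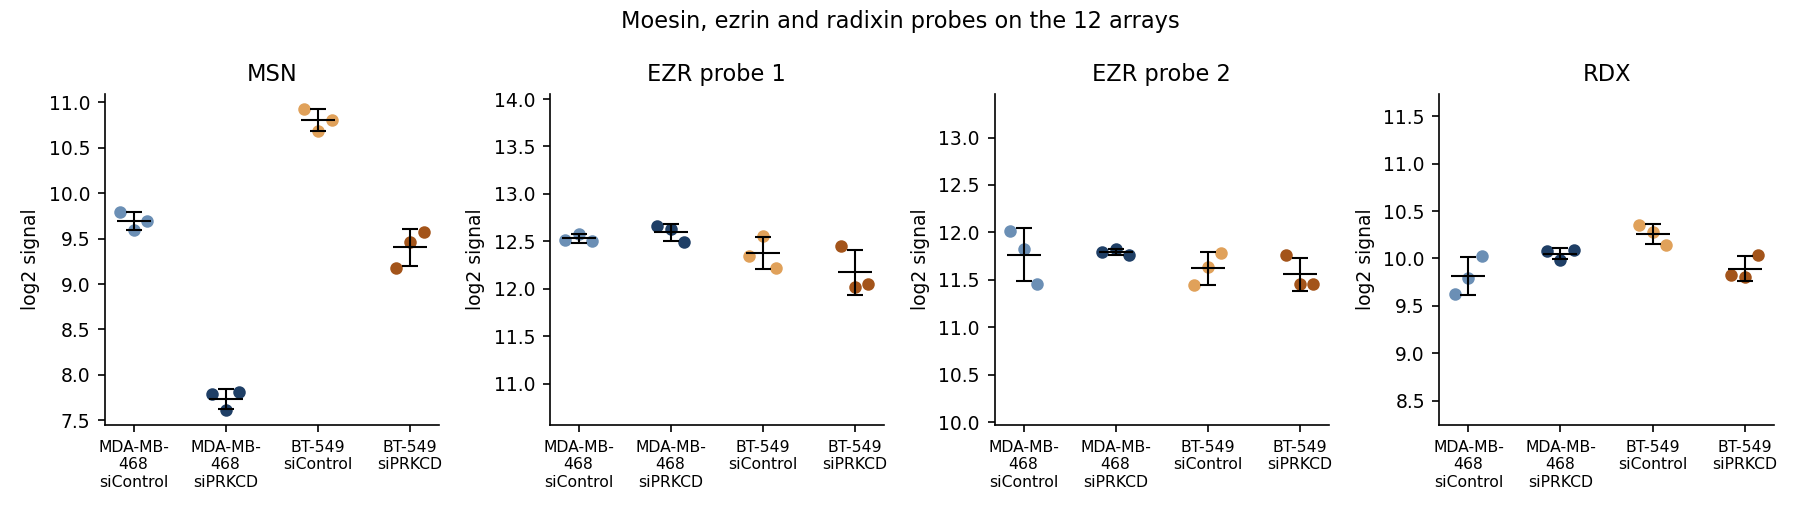
Log2 signal of the MSN, EZR and RDX probes on each of the 12 arrays (points), with the group mean and SD (lines and bars), for siControl and siPRKCD in both lines; every panel spans the same number of log2 units, though not the same levels. MSN drops from between 9.59 and 9.79 to between 7.61 and 7.81 in MDA-MB-468, while the EZR groups overlap.

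The fall of MSN was 0.55 log2 units smaller in BT-549 than in MDA-MB-468 (SE 0.16, 95% interval 0.22 to 0.89), and this difference between the lines only just passed (adjusted p 0.045). It did not pass with each array centred on its median in place of quantile normalization (0.40, adjusted p 0.37) or when any 1 of 9 of the 12 arrays was left out (adjusted p up to 0.12), the exceptions being MDA-MB-468 siPRKCD replicate 3, BT-549 siControl replicate 1 and BT-549 siPRKCD replicate 1. The measured fall of PRKCD was also smaller in BT-549, by 0.84 log2 units (SE 0.16, adjusted p 0.0049), though not past the threshold with median centring or neqc background correction. Its BT-549 siPRKCD samples lay near background (6.67 to 7.01, detected on 1 of 3 arrays), so a fall as large as in MDA-MB-468 could not have been seen there, and its part in the MSN difference was not tested. With siControl, MSN was 2.17-fold higher in BT-549 than in MDA-MB-468 (log2 difference 1.11, SE 0.11, adjusted p 5e-07), with no overlap of the 3 samples of each line. The control arrays of this comparison are the same as those of the siRNA comparisons.

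The genes whose pattern over the 12 arrays was nearest to that of MSN were chosen by the smallest root-mean-square difference of log2 signals after each probe's own mean was taken away. They were IL13RA1, a chain of the interleukin-13 receptor (difference 0.244 log2 units), DRAM1, a lysosomal membrane protein linked to autophagy (0.32), GYG1, the glycogenin that primes glycogen synthesis (0.348), MAN2A1, a Golgi mannosidase of N-glycan processing (0.35), and PIK3R1, a regulatory subunit of phosphoinositide 3-kinase (0.385). IL13RA1 came closest in size as well, with group means of 10.20 and 8.50 in MDA-MB-468 and 11.66 and 10.25 in BT-549 for siControl and siPRKCD. Among the other 4 genes the log2 difference with siPRKCD ran from -1.43 for GYG1 to -0.97 for PIK3R1 in MDA-MB-468, and from -1.37 for DRAM1 to -0.92 for GYG1 in BT-549. Since the rule picked them for this pattern, their values are a description. No other ERM gene was among them.

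Ezrin, the ERM protein typical of epithelial microvilli, was measured by 2 probes. EZR probe 1 read 12.51, 12.58 and 12.50 with siControl and 12.66, 12.63 and 12.49 with siPRKCD in MDA-MB-468, and 12.35, 12.56 and 12.22 against 12.45, 12.02 and 12.05 in BT-549. EZR probe 2 read 12.01, 11.82 and 11.46 against 11.79, 11.83 and 11.76 in MDA-MB-468, and 11.44, 11.64 and 11.78 against 11.76, 11.46 and 11.46 in BT-549. The groups overlapped in each line for both probes, though for probe 1 the lowest 2 siPRKCD samples of BT-549 lay below all its siControl samples. The log2 differences of probe 1 were 0.06 (95% interval -0.19 to 0.32, adjusted p 0.77) in MDA-MB-468 and -0.20 (-0.46 to 0.05, adjusted p 0.26) in BT-549, and those of probe 2 were 0.03 (-0.25 to 0.32) and -0.06 (-0.34 to 0.23). These intervals leave out a fall of the size seen for MSN in the same line. Without BT-549 siPRKCD replicate 1 the probe 1 difference in BT-549 was -0.34 and was called (adjusted p 0.045). With siControl, EZR did not pass the test between the lines either, at -0.15 (adjusted p 0.29) and -0.14 (adjusted p 0.4) for the 2 probes.

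Radixin, the third ERM protein, fell in BT-549 and did not pass the test in MDA-MB-468. The RDX probe read 9.63, 9.79 and 10.03 with siControl and 10.08, 9.98 and 10.09 with siPRKCD in MDA-MB-468, where the groups overlapped and the difference of 0.23 was not called (SE 0.11, adjusted p 0.15), though it was without siControl replicate 3 (0.34, adjusted p 0.036). In BT-549 it read 10.35, 10.28 and 10.14 with siControl and 9.83, 9.80 and 10.04 with siPRKCD, with every siPRKCD sample below every siControl sample. That fall was small, -0.36 on the log2 scale (SE 0.11, adjusted p 0.028). The difference between the 2 responses was -0.60 (SE 0.15, adjusted p 0.028). With siControl, RDX was higher in BT-549 by 0.44 (SE 0.11, adjusted p 0.0029). The BT-549 fall did not pass with median centring (-0.47, adjusted p 0.059), with another background correction (neqc; -0.39, adjusted p 0.078), or without BT-549 siControl replicate 1 (-0.31, adjusted p 0.11) or 2 (-0.35, 0.085) or siPRKCD replicate 1 (-0.33, 0.085) or 2 (-0.32, 0.095). The difference between the lines did not pass with either of those 2 settings (adjusted p 0.083 and 0.085) or without any 1 of 7 arrays: MDA-MB-468 siControl replicate 1 (-0.50) or 2 (-0.58), MDA-MB-468 siPRKCD replicate 1 (-0.58), and replicates 1 and 2 of both BT-549 groups (-0.58 to -0.55).

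Merlin mRNA was near the limit of detection. The 4 NF2 probes lay between 6.58 and 7.32 log2 signal on all arrays, and only probe 2 was detected on at least 2 of 3 arrays in every group. None was called in either siRNA comparison, with log2 differences of -0.03 to 0.19 in MDA-MB-468 and 0.0 to 0.24 in BT-549. Probe 2 came closest, at 0.24 in BT-549 (SE 0.09, adjusted p 0.06), and it was called there in 4 of the processing alternatives (adjusted p 0.027 to 0.048) and without BT-549 siPRKCD replicate 1 (0.30, adjusted p 0.042), and in MDA-MB-468 with neqc (0.59, adjusted p 0.034). Probe 4 was not above background on any siPRKCD array of BT-549. With siControl, NF2 probe 3 was higher in BT-549 by 0.27 (SE 0.11, adjusted p 0.047), a probe detected on 1 of 3 MDA-MB-468 and 3 of 3 BT-549 control arrays, and the other 3 probes were not called, at -0.06 to 0.12. That call was lost with median centring (adjusted p 0.086), without the detection filter (adjusted p 0.073), and without any 1 of 7 arrays, namely MDA-MB-468 siControl replicate 2 or 3, siPRKCD replicate 2 of either line, or any BT-549 siControl replicate (0.19 to 0.30, adjusted p 0.052 to 0.19).

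CD44, the hyaluronan receptor whose cytoplasmic tail binds ERM proteins, had 3 probes. CD44 probe 1, the brightest, read 13.19, 13.01 and 13.16 with siControl and 13.31, 13.45 and 13.24 with siPRKCD in MDA-MB-468, and 13.53, 13.63 and 13.71 against 13.20, 13.19 and 13.10 in BT-549. It fell in BT-549 by 0.46 on the log2 scale (SE 0.09, adjusted p 0.0021), and the difference of 0.21 in MDA-MB-468 was not called (SE 0.09, adjusted p 0.11) though the groups did not overlap. The difference between the responses, -0.67 (SE 0.13, adjusted p 0.0047), passed. With siControl the probe was higher in BT-549 by 0.50 (SE 0.09, adjusted p 0.0002), and with siPRKCD its BT-549 samples lay below the siPRKCD samples of MDA-MB-468.

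CD44 probe 2 read 10.21, 10.09 and 10 with siControl and 10.39, 10.81 and 10.56 with siPRKCD in MDA-MB-468, a rise of 0.49 (SE 0.13, adjusted p 0.015) without overlap. Without MDA-MB-468 siPRKCD replicate 2, the highest of them, it was 0.37 (adjusted p 0.079). The BT-549 samples read 10.66, 10.93 and 10.98 against 10.58, 10.96 and 10.64, overlapping groups with a difference of -0.13 (adjusted p 0.54). The difference between the lines, -0.62, did not pass (SE 0.18, adjusted p 0.054) but did with the replicate number as a block (adjusted p 0.025) and without MDA-MB-468 siPRKCD replicate 1 (-0.72, adjusted p 0.037), BT-549 siControl replicate 1 (-0.72, 0.04) or BT-549 siPRKCD replicate 2 (-0.74, 0.023). Probes 1 and 2 thus had the same sign in each line, but a different one of the 2 lines was called for each.

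The dimmest, CD44 probe 3, is annotated to the longest RefSeq transcript of the gene, and where in it the probe lies was not given. It read 7.54, 7.48 and 7.41 with siControl and 7.71, 7.77 and 7.63 with siPRKCD in MDA-MB-468, not overlapping and not called (0.22, adjusted p 0.089). For BT-549 the values were 7.07, 7.13 and 6.87 against 7.03, 7.0 and 7.05 (difference 0.0), and 2 of the 3 siControl arrays detected it. With siControl it was lower in BT-549 by a log2 difference of -0.45 (SE 0.09, adjusted p 0.00041), whereas probe 1 (0.50) and probe 2 (0.76, SE 0.13, adjusted p 0.00014) were higher there. The probes of CD44 therefore disagreed in direction between the lines, each with groups that did not overlap.

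**Figure D2:**
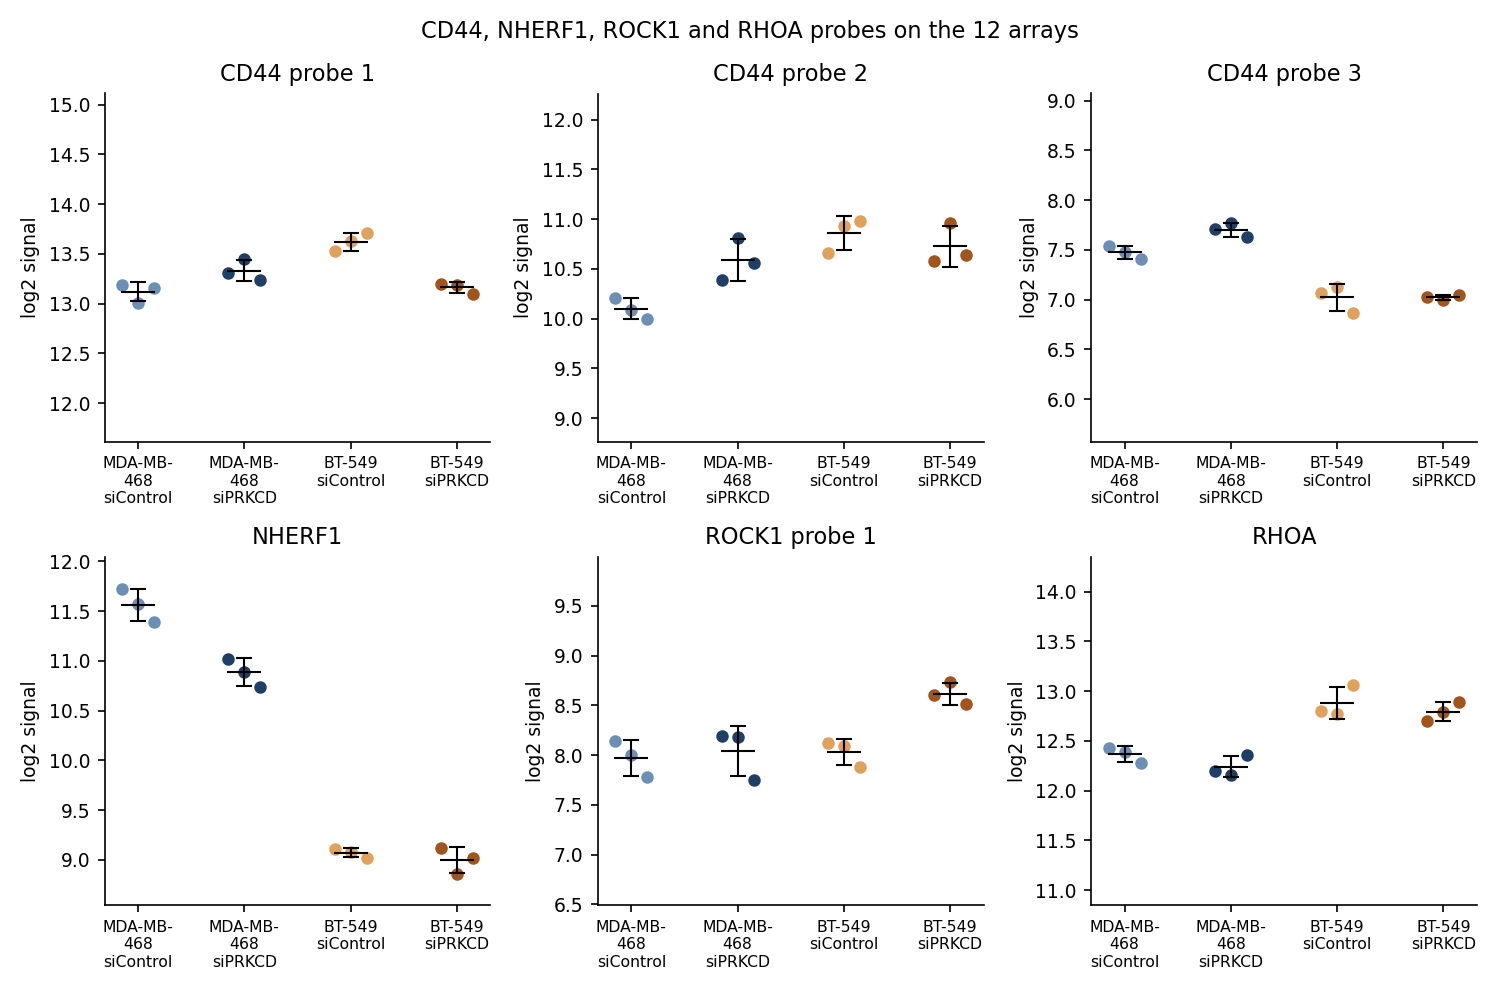
Log2 signal of the CD44, NHERF1, ROCK1 (probe 1) and RHOA probes on each of the 12 arrays (points), with the group mean and SD (lines and bars), for siControl and siPRKCD in both lines. CD44 probe 1 reads higher with siPRKCD in MDA-MB-468, where it was not called, and lower in BT-549, and NHERF1 is lower with siPRKCD in MDA-MB-468 but near 9 in both BT-549 groups.

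NHERF1 is the PDZ scaffold that links ERM proteins to membrane transporters and receptors, and it is abundant in epithelia. Its probe read 11.72, 11.57 and 11.39 with siControl and 11.02, 10.89 and 10.74 with siPRKCD in MDA-MB-468, with no overlap, and fell by 0.68 on the log2 scale (SE 0.11, adjusted p 0.00039). In BT-549 it read 9.11, 9.08 and 9.02 against 9.12, 8.86 and 9.02, and did not pass (-0.07, 95% interval -0.30 to 0.16, adjusted p 0.72). The responses differed by 0.61 (SE 0.15, adjusted p 0.023). This difference did not pass with median centring (0.44, adjusted p 0.37) or neqc (0.62, adjusted p 0.095), nor without MDA-MB-468 siControl replicate 1 (0.52) or 2 (0.60), BT-549 siControl replicate 2 (0.61) or 3 (0.58), or BT-549 siPRKCD replicate 1 (0.55), each with an adjusted p of 0.051 to 0.061. With siControl, NHERF1 was lower in BT-549 by a log2 difference of -2.49 (SE 0.11, adjusted p 2.7e-11), the widest gap between the lines among the members.

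Several, though not all, markers of the epithelial state were lower with siPRKCD in MDA-MB-468, where NHERF1 and MSN fell. Of the 9 epithelial markers 6 were called lower there (CDH1, KRT5, KRT8, KRT18, KRT19 and CLDN3), led by KRT5 at -1.59, where 13.1% of all genes were. The other 3 were not called: the mean of EPCAM went from 12.84 to 12.95, that of CLDN7 from 10.55 to 10.19, and that of CLDN4, near background, from 6.81 to 6.91. The summed linear signal of the 9 markers went from 23300 to 25500 down to 18000 to 22000. In BT-549 none of the 9 was called and the sums were 1070 to 1170 against 1030 to 1080. Only CDH1 was detected on all BT-549 arrays, so a fall of the other epithelial markers could not have been measured there. The BT-549 sums were largely background signal. Of the 9 mesenchymal markers measured, none was called in MDA-MB-468. A fall of SPARC, COL1A2, COL6A1, ZEB1, TWIST1 and SNAI2, all below detection in that line, could not have been measured. With siPRKCD in BT-549, 5 mesenchymal markers were called lower (CDH2, SPARC, COL1A1, COL1A2 and SNAI2) and COL6A1 higher, where 14.2% of all genes were called lower and 10.9% higher. VIM, ZEB1 and TWIST1 were not called. The summed signals were 38400 to 39900 with siControl against 30900 to 33100 with siPRKCD. The marker calls were not put through the processing alternatives or the fits with arrays left out. The part of these shifts in the results for MSN, NHERF1, RDX and CD44 was not tested. In such bulk samples fewer cells of a kind and less mRNA in each cell cannot be told apart.

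ROCK1 and ROCK2 are kinases that raise myosin light chain phosphorylation. ROCK1 probe 1 read 8.14, 8.0 and 7.78 with siControl and 8.19, 8.18 and 7.75 with siPRKCD in MDA-MB-468, overlapping and not called (0.07, adjusted p 0.78). In BT-549 it read 8.12, 8.09 and 7.88 against 8.60, 8.73 and 8.51, without overlap, a rise of 0.58 (SE 0.13, adjusted p 0.0046), which did not pass with median centring (0.48, adjusted p 0.066). ROCK1 probe 2, which was more variable (SD up to 0.50), had a difference of the same sign in BT-549 but did not pass (0.41, SE 0.20, adjusted p 0.17), and without MDA-MB-468 siPRKCD replicate 3, its highest value at 8.38, it was called (0.41, adjusted p 0.045). ROCK1P1, a partial copy of ROCK1 that was read by its own probe, was called higher in BT-549 as well (0.29, SE 0.10), and signal shared between such near-identical sequences cannot be told apart here. The difference of 0.52 between the lines for probe 1 did not pass (adjusted p 0.11), though with the replicate number as a block it did (adjusted p 0.021).

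ROCK2 probe 1 was bright and nearly level, at 13.62 to 13.95 over the 12 arrays, with differences of -0.09 (adjusted p 0.53) and -0.19 (adjusted p 0.13). ROCK2 probe 2 read 8.84, 8.65 and 8.71 with siControl and 8.47, 8.26 and 8.25 with siPRKCD in MDA-MB-468, without overlap, and fell by 0.41 on the log2 scale (SE 0.13, adjusted p 0.037). For BT-549 the values were 8.66, 8.54 and 8.30 against 8.20, 8.70 and 8.30 (-0.10, adjusted p 0.66). The MDA-MB-468 call of probe 2 was not shared by probe 1, and it was lost with median centring (-0.38, adjusted p 0.21), neqc (-0.53, 0.061) and no detection filter (adjusted p 0.069), and without any MDA-MB-468 siControl replicate (-0.45 to -0.35, adjusted p 0.055 to 0.13), MDA-MB-468 siPRKCD replicate 2 or 3 (-0.37 each, adjusted p 0.11 and 0.091), or BT-549 siControl replicate 2 (-0.41, adjusted p 0.051).

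RHOA, the GTPase upstream of both kinases, read 12.43, 12.39 and 12.28 with siControl and 12.20, 12.16 and 12.36 with siPRKCD in MDA-MB-468, and 12.80, 12.77 and 13.06 against 12.70, 12.79 and 12.89 in BT-549. The siControl and siPRKCD samples overlapped in both lines, and the differences of -0.12 (95% interval -0.34 to 0.09, adjusted p 0.44) and -0.08 (-0.29 to 0.13, adjusted p 0.64) were not called. The lines did differ: with siControl RHOA was higher in BT-549 by 0.52 (SE 0.10, adjusted p 0.0004), without overlap.

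**Figure D3:**
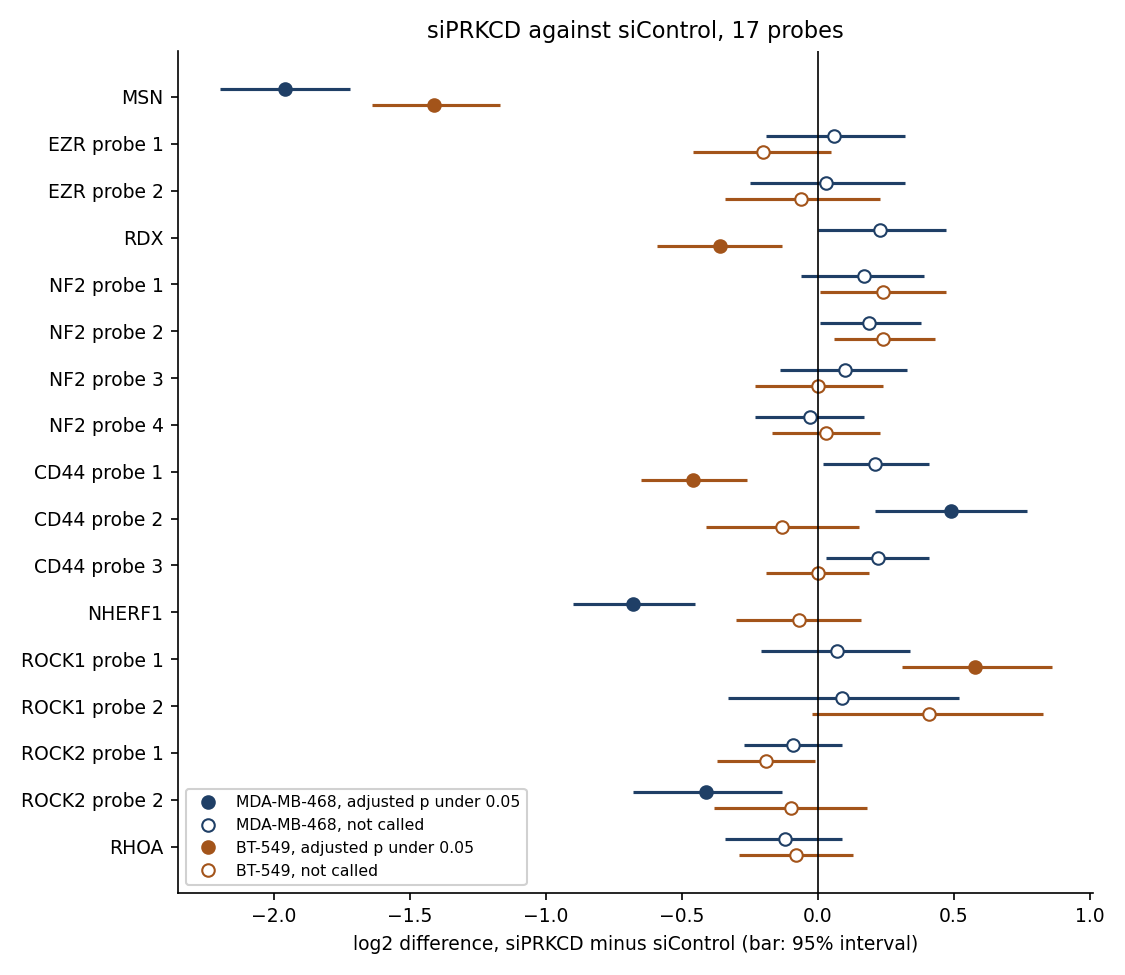
Log2 difference between siPRKCD and siControl (points) with its 95% interval (bars) for the 17 probes in MDA-MB-468 (blue) and BT-549 (brown), filled where the adjusted p was under 0.05. MSN stands at -1.96 and -1.41, and every other probe lies between -0.68 and 0.58.

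Between the lines with siControl, 8 of 17 member probes were called, where 55.9% of all probes were (28.9% higher, 27.1% lower): MSN, RDX, RHOA, CD44 probes 1 and 2 and NF2 probe 3 were higher in BT-549 (6 probes), and NHERF1 and CD44 probe 3 lower (2 probes). The 2 EZR, 2 ROCK1 and 2 ROCK2 probes did not pass, with log2 differences of -0.24 to 0.06. MSN and NHERF1 differed most, one upward and one downward. For the response itself, the difference between the lines was called for 4 of 17 probes (MSN and NHERF1 higher in BT-549, that is, less lowered; RDX and CD44 probe 1 lower), where 7.6% of all probes were called (3.66% higher, 3.94% lower). The groups of the 2 lines did not overlap for 8 of 17 probes, against 63.9% of all probes. Only the call of CD44 probe 1 among these 4 held under all alternatives run, and the balance of calls over the whole array moved with the scaling: in BT-549 47.2% of calls were upward, against 24.1% with median centring, and for the difference between the lines 48.2% against 32.7%.

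**Figure D4:**
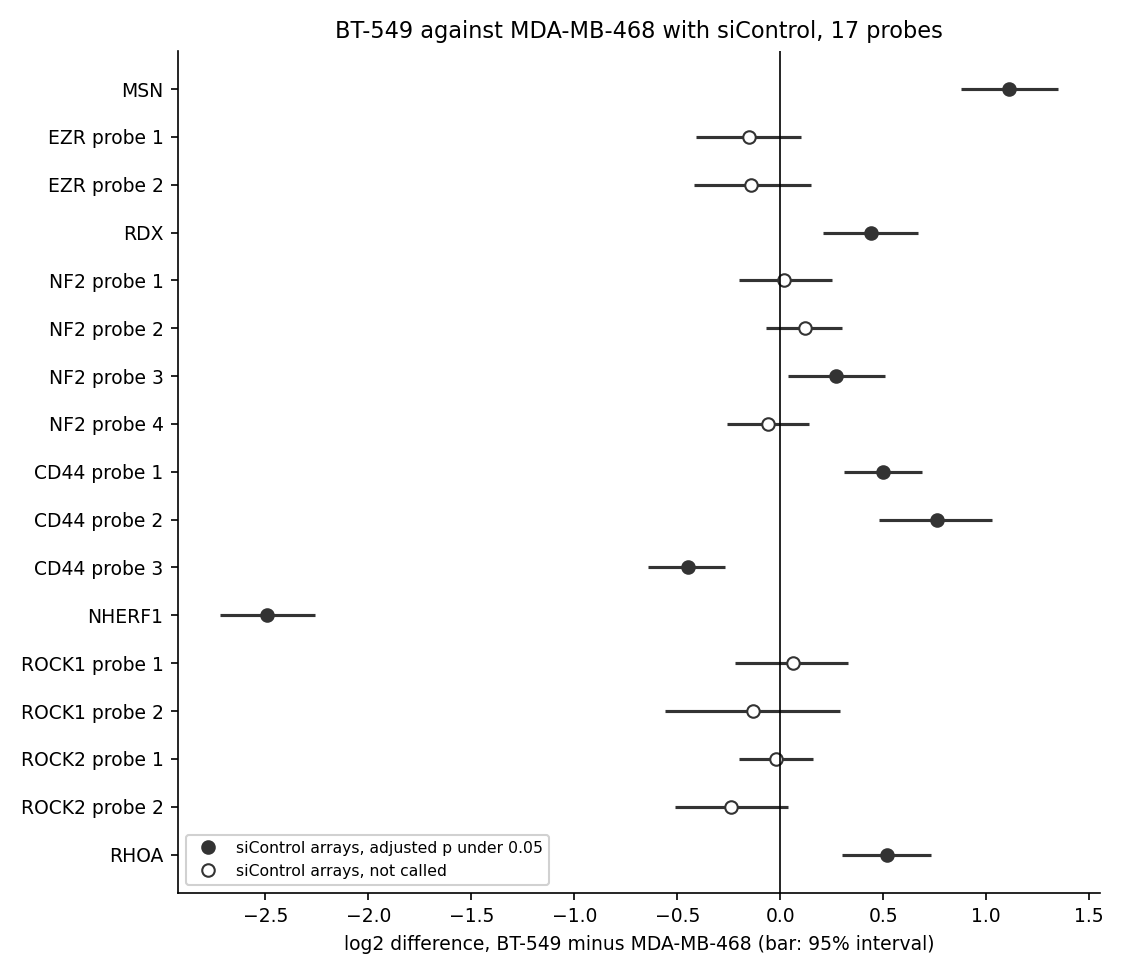
Log2 difference between BT-549 and MDA-MB-468, both with siControl (points), with its 95% interval (bars) for the 17 probes, filled where the adjusted p was under 0.05. NHERF1 (-2.49) and MSN (1.11) lie farthest from 0, on opposite sides.

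The 5 lists of genes around the ERM proteins were read in the same way, 1 probe a gene. Over all 11459 genes measured, 24.8% were called with siPRKCD in MDA-MB-468 (11.7% higher, 13.1% lower) and 25% in BT-549 (10.9% higher, 14.2% lower). Of the 21 list genes called in MDA-MB-468, 12 were not called with median centring, and of the 18 in BT-549 it was 10, so most single calls given here depend on the scaling. In MDA-MB-468, ICAM1, CRB3, FRMD8, TLN2, FERMT1 and CEMIP2 (6 genes) were called in each alternative in which they were tested, each array left out included. In BT-549 this held for LZTR1, EPB41L5, FRMD8, FARP1 and HAS3 (5 genes). Of these, TLN2 in MDA-MB-468 (siPRKCD mean 6.92) and EPB41L5 in BT-549 (siPRKCD mean 6.83) were each detected on only 1 of 3 siPRKCD arrays. Their falls thus ended near background. The medians of the 5 lists lay between -0.10 and 0.06 in MDA-MB-468 and between -0.05 and 0.01 in BT-549, near those over all genes (0.003 and -0.009). The difference between the lines' responses was called for 10 of the 79 different list genes, where 9.29% of all genes were.

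Of 13 measured kinases and phosphatases of the ERM threonine, 2 rose and 2 fell in MDA-MB-468 and 1 fell in BT-549. PRKCA, the classical isoform PKCα, rose by 0.46 in MDA-MB-468 (SE 0.13, adjusted p 0.022) and was at -0.38 in BT-549 (adjusted p 0.052), responses that differed by -0.84 (adjusted p 0.012). With siControl it was higher in BT-549 than in MDA-MB-468 by 2.55 (adjusted p 2.5e-10). PPP1CC, a catalytic subunit of protein phosphatase 1, rose by 0.36. STK26, a kinase that phosphorylates ezrin, fell by 0.35 in MDA-MB-468 (adjusted p 0.014) from a mean of 10.99, while BT-549 siControl stood at 7.51. CDC42BPA, a Cdc42-binding kinase, fell by 0.37 in MDA-MB-468. PPP1CB, the catalytic subunit of myosin phosphatase, fell by 0.55 in BT-549 (adjusted p 0.0062). None of these siRNA calls passed with median centring, nor did the PRKCA difference of responses. The calls of STK26 and PPP1CC were also lost with neqc, and that of CDC42BPA without the detection filter. Between the lines PRKCH, the PKCη gene, was lower in BT-549 by -1.71, and SLK, which phosphorylates ERM proteins, was higher by 0.79.

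Of 20 listed membrane and scaffold partners, 10 were measured: 4 fell in MDA-MB-468, and 1 rose and 1 fell in BT-549. In MDA-MB-468, ICAM1, an adhesion receptor that binds ERM proteins, fell by 0.44 (SE 0.08, adjusted p 0.0012) and CRB3, a polarity protein of the Crumbs family, by 0.43 (adjusted p 0.0022). Both were called in each alternative in which they were tested. CRB3, below detection in BT-549, was not tested where detection on all 12 arrays was required. PODXL, the sialomucin held by ezrin and NHERF scaffolds, fell by 0.68 in MDA-MB-468 (SE 0.17, adjusted p 0.011) and by 0.50 in BT-549, where the groups overlapped, 1 of 3 siPRKCD arrays detected it and the adjusted p, 0.05 after rounding, was only just under the threshold. That BT-549 call was lost without any 1 of 9 arrays (-0.75 to -0.32 over all 12 omissions, -0.32 without BT-549 siControl replicate 1), with median centring, without the detection filter and with each line fitted alone, and the MDA-MB-468 call was lost with median centring and neqc. PDZK1, a PDZ scaffold related to NHERF1, was the fourth, and it was below detection in the MDA-MB-468 siPRKCD samples. ICAM3 rose by 0.49 in BT-549 (adjusted p 0.011). Between the lines BASP1, a lipid-anchored protein of the inner membrane face, was at least 67.5-fold higher in BT-549 and the proteoglycan SDC2 at least 2.46-fold higher, both being below detection in MDA-MB-468 siControl. CRB3 was at least 5.56-fold lower, being below detection in BT-549 siControl. These bounds set the brighter mean against the dimmest signals that were detected.

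Of 20 measured genes of merlin and Hippo signaling, 3 rose and 4 fell in MDA-MB-468, and 2 rose and 2 fell in BT-549. In MDA-MB-468 the coactivator YAP1 fell by 0.75 (SE 0.18, adjusted p 0.0068), MOB1A, an activator of the LATS kinases, by 0.61 (adjusted p 0.004), the scaffold SAV1 by 0.38 and WWC1 (KIBRA) by 0.40, and none of these 4 passed with median centring. The kinase STK3 rose by 1.07 (SE 0.27, adjusted p 0.012), but its siControl samples ran from 9.04 to 10.64 (SD 0.86). Without siControl replicate 3 the rise was 0.57 (adjusted p 0.0017), and with each line fitted alone it did not pass (adjusted p 0.061). FRMD6, a FERM protein of the pathway, rose by 0.41. TEAD4, a DNA-binding partner of YAP1, rose by 0.40 in MDA-MB-468 (adjusted p 0.044) and by 0.56 in BT-549 (adjusted p 0.0074). The MDA-MB-468 call of TEAD4 was lost without any 1 of 9 arrays, and with median centring, neqc, no detection filter or an intensity trend. Its BT-549 call was lost with median centring. In BT-549 the kinase LATS2 rose by 0.37, and STK4 fell by 0.34 and LZTR1 by 0.38. The pathway's target gene ANKRD1 was at least 12.5-fold lower in BT-549 than in MDA-MB-468 with siControl, being below detection in BT-549, and AMOT was lower there by a log2 difference of -2.68.

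Of 22 measured FERM domain relatives, 3 rose and 3 fell in MDA-MB-468, and 6 fell and none rose in BT-549 (10.9% of all genes were called higher there). FRMD8, which binds the iRhom proteins, rose by 0.57 in MDA-MB-468 (SE 0.11, adjusted p 0.0019) and fell by 0.59 in BT-549 (SE 0.11, adjusted p 0.0016), and the difference between the lines, -1.16 (adjusted p 0.0005), was called under all alternatives run. The phosphatase PTPN4 rose by 0.30 in MDA-MB-468 (adjusted p 0.015) and fell by 0.25 in BT-549 (adjusted p 0.041), with a difference of -0.54 (adjusted p 0.0086). Each of these PTPN4 calls was lost with median centring. The rise was also lost with neqc or without either of 2 arrays. The fall was also lost without any 1 of 8 arrays, with detection on all 12 arrays, with an intensity trend and with each line fitted alone. FRMD4A fell in both lines, by 0.47 and 0.49, and so did the talin TLN2, by 0.55 and 0.28 (adjusted p 0.042 in BT-549). The FRMD4A calls were lost with median centring in MDA-MB-468, with neqc in BT-549, and without some single arrays. The BT-549 call of TLN2 was lost without any 1 of 9 arrays, with median centring and with each line fitted alone. In MDA-MB-468, TLN2 was detected on 1 of 3 siPRKCD arrays. FERMT1 (kindlin-1) fell in MDA-MB-468 by 0.43, and EPB41L5 and FARP1 fell in BT-549 by 0.32 and 0.57. The focal adhesion kinase PTK2 was higher in BT-549 than in MDA-MB-468 by 1.53 with siControl.

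Of 15 measured genes of hyaluronan metabolism and CD44 processing, 1 fell in MDA-MB-468, and 3 rose and 2 fell in BT-549. With the replicate number as a block within lines, 2 also passed as higher in MDA-MB-468, the synthase HAS3 (0.39, adjusted p 0.016, against 0.051 without the block) and the sheddase ADAM17 (0.25, adjusted p 0.043, against 0.083). CEMIP2, described in mouse as a cell-surface hyaluronidase, fell by 0.90 in MDA-MB-468 (SE 0.14, adjusted p 0.0003), under all alternatives run. In BT-549 the hyaluronan synthases HAS3 and HAS2 rose by 0.62 (SE 0.13, adjusted p 0.0038) and 0.35 (adjusted p 0.019), and MMP14, a membrane protease that can cleave CD44, rose by 0.36 (adjusted p 0.008). HYAL2, a hyaluronidase, fell there by 0.35 and HNRNPM, a splicing factor of CD44, by 0.32. HAS3 and HAS2 were below detection in MDA-MB-468 siControl and were at least 6.17-fold and 1.88-fold higher in BT-549. ESRP1, the epithelial splicing factor that acts on CD44, was at least 1.37-fold lower in BT-549, where it was below detection.

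**Figure D5:**
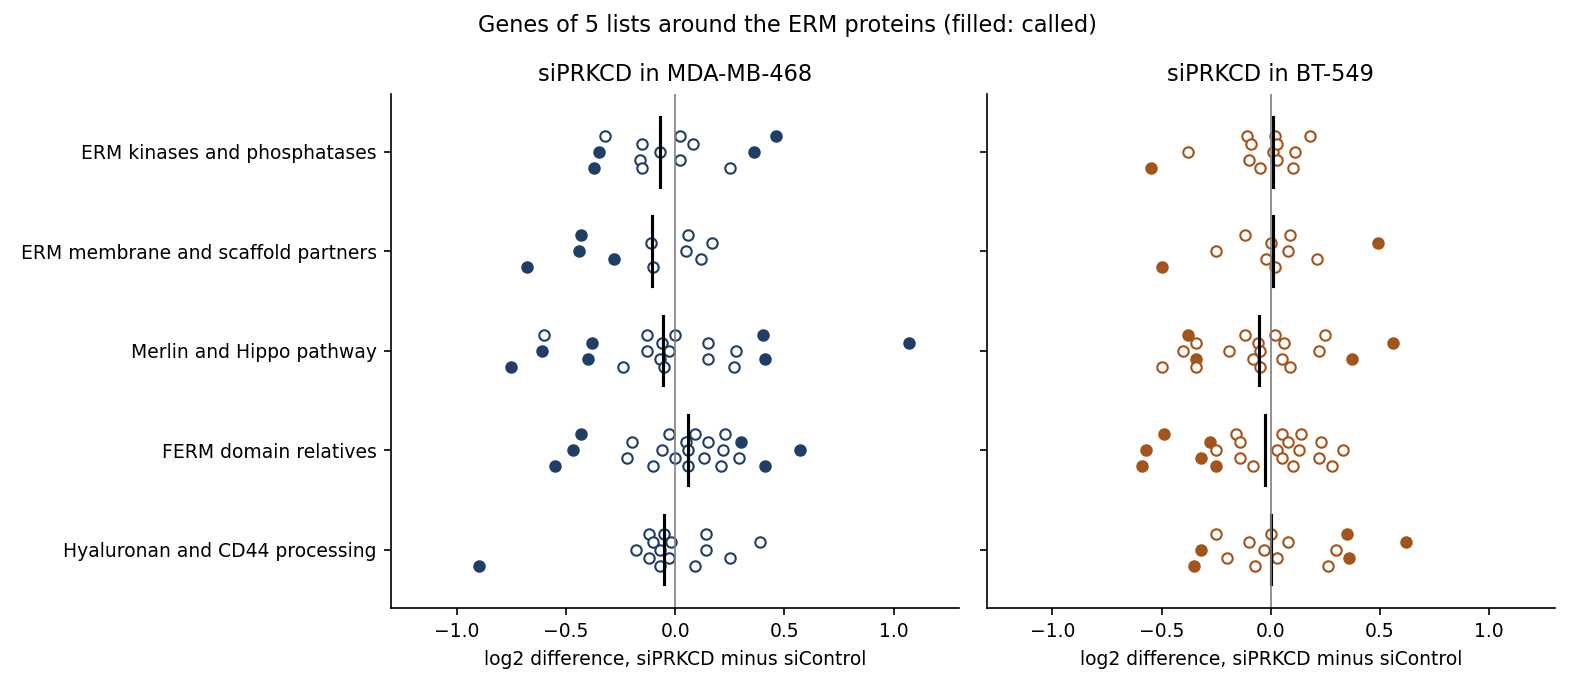
Log2 difference between siPRKCD and siControl for each measured gene of the 5 lists (points, filled where the adjusted p was under 0.05, spread vertically only to keep them apart) with the list median (black bar), in MDA-MB-468 (left) and BT-549 (right). The list medians sit within -0.10 to 0.06 in both lines, and single genes reach 1.07 (STK3; 0.57 without siControl replicate 3) and -0.90 (CEMIP2) in MDA-MB-468.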

How the data were processed

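Total RNA of MDA-MB-468 and BT-549 cells treated with siPRKCD or siControl (12 samples, 3 for each of 4 groups) was labelled and hybridized by the authors to Illumina Human HT-12 v4 arrays. The 2 tables of bead intensities deposited by the authors held the same arrays, 1 not normalized and 1 already normalized by them, in a way their methods name quantal. Detection p-values, which set a probe against the negative controls of its array, were deposited with them. Which scanner software was used is not given in the sources used here.

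For this report the deposited raw intensities of all 12 arrays underwent quantile normalization and then log2, and no background was subtracted. The result differed from the authors' normalized intensities by at most 0.0083 on the log2 scale. Probes with a detection p under 0.01 on at least 3 of 12 arrays were kept (19439 of 47323), and genes of the lists were read from the kept probe with the highest mean (11459 genes). Symbols came from the platform annotation, in which 30113 probes had 1 symbol, 8 had several and 17202 had none here, and older symbols were updated. A linear model with a mean for each group was fitted over the 12 arrays with limma 3.58.1 in R 4.3.3 (8 residual and 6.62 prior degrees of freedom), and p-values were adjusted by Benjamini-Hochberg over all kept probes. The contrasts were siPRKCD minus siControl in each line, BT-549 minus MDA-MB-468 with siControl, and the difference of the responses, BT-549 minus MDA-MB-468. An exact permutation test of 3 against 3 samples cannot go below p 0.1 and was not used. Where both groups of a pair were not detected, no fold was given. The script was checked on simulated data with known changes.

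Replicates are numbered in the labels, and the study describes its fold changes as means over experiments, without saying how the cultures of these were separated. Each p-value reflects how far these samples spread. In MDA-MB-468 the deviations of same-numbered siControl and siPRKCD samples from their group means correlated at 0.33 to 0.54. Samples with other numbers reached 0.23, so the numbers may pair the samples there, though the labels do not say so. The main fit used no pairing. In BT-549 the same-numbered deviations correlated at -0.04 to 0.30 and were not taken as pairs. The number of arrays limits the precision.

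All probes of the 9 member genes were named, and of each list up to 4 genes with the smallest adjusted p in any contrast, any gene needed for a count of 5 or fewer, and the 5 genes nearest to MSN; further called genes of the lists, and ROCK1P1, were named after their values were seen. 1 further gene list is not reported here. The members and lists were chosen with earlier results of these data known. Alternatives were median centring, neqc background correction, the authors' table, other detection filters, 1 probe a gene, an intensity trend, a replicate block, each line fitted alone, and each array left out. The slide could not be used as a block, since no slide is named in the sources used here. Promoter windows were taken from RefSeq on GRCh38.p14.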

Additional observations from a re-analysis of the deposited data

Results flagged for a closer look

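In 15 results the response to siPRKCD differed between BT-549 and MDA-MB-468 by the interaction term of the limma fit at an adjusted p under 0.05. Of the 17 member probes 2 were called higher and 2 lower, where 7.6% of all probes were called. The siRNA target was called too. Of the 79 list genes, read by 1 probe each, 10 were called, where 9.29% of all genes were. A positive value means that the log2 response of BT-549 stood above that of MDA-MB-468. Among the members and the siRNA target the differences were 0.55 for MSN (adjusted p 0.045), -0.60 for RDX (0.028), -0.67 for CD44 probe 1 (0.0047), 0.61 for NHERF1 (0.023) and 0.84 for PRKCD probe 1 (0.0049). MSN and NHERF1 were lowered less in BT-549. PRKCD lay near background in the BT-549 siPRKCD samples, where 1 of 3 arrays detected it, so its full fall there could not be measured. The responses of RDX and CD44 probe 1 stood lower in BT-549.

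Among the lists the response stood higher in BT-549 for ICAM1 (0.52, adjusted p 0.011), CRB3 (0.43, 0.042), SAV1 (0.43, 0.034), FERMT1 (0.49, 0.024) and MMP14 (0.43, 0.045). It stood lower there for PRKCA (-0.84, adjusted p 0.012), STK4 (-0.49, 0.035), EPB41L5 (-0.53, 0.013), FRMD8 (-1.16, 0.0005) and PTPN4 (-0.54, 0.0086). Of these 10 list genes, 2 (EPB41L5 and FRMD8) kept the call under all alternatives run, and 8 lost it with median centring. CRB3 and FERMT1 were below detection in both BT-549 groups, and MMP14 in both MDA-MB-468 groups, so a change there could not be measured. ICAM1 was detected in BT-549 but only just above background (means 7.01 and 7.09). A fall of 0.44, as in MDA-MB-468, could not have been seen there in full. EPB41L5 lay near background in every group (means 6.83 to 7.18), and 1 of 3 BT-549 siPRKCD arrays detected it.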

How the results depend on the processing

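Over the processing alternatives, 157 of 173 values of member differences that were called kept the direction and the call, 16 lost the call and none changed sign. With 1 array left out it was 201 of 240, and 39 lost the call. Many of these fits could not move the estimate much. The authors' table differed by at most 0.0083 on the log2 scale. Other filters, 1 probe a gene, an intensity trend and separate line fits change only the spread or the adjustment. Leaving out an array outside the groups compared leaves the estimate as it was. Both tallies therefore overstate how far the calls were put to the test. The calls of MSN in each line and between the lines, of CD44 probe 1 and NHERF1 except for the NHERF1 difference of responses, and of RHOA, RDX and CD44 probes 2 and 3 between the lines were kept wherever they were tested. With 1 array left out MSN ranged from -2.01 to -1.90 in MDA-MB-468, from -1.49 to -1.29 in BT-549 and from 1.05 to 1.18 between the lines. Only the difference of its responses was unstable. It was 0.40 with median centring (adjusted p 0.37), 0.55 without a detection filter (0.065), with detection on all 12 arrays (0.064) and with an intensity trend (0.067), and 0.47 to 0.67 with 1 array left out. The cause was not tested.

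Counts moved with several settings. Median centring called 980 probes higher and 1113 lower in MDA-MB-468 (2071 and 2136 by quantile normalization), 566 higher in BT-549 (1973), and 210 higher and 432 lower for the difference of responses (712 and 765). Detection on all 12 arrays, which tests fewer probes, gave 298 and 390 for that difference, and 3708 higher and 3346 lower between the lines (5614 and 5260), while 1 probe a gene gave 3730 and 3408. Among the 17 member probes, those called higher in MDA-MB-468 were 2 with neqc and 0 with 1 probe a gene (1 as reported). Those called higher in BT-549 were 0 with median centring, 2 with neqc, no filter or an intensity trend, and 3 with the block within lines (1 as reported). Those lower between the lines were 1 with detection on all arrays or 1 probe a gene (2 as reported). For the difference of responses, the 2 called higher became 0 with median centring and 1 with neqc, no filter, detection on all arrays or an intensity trend, and the 2 called lower became 1 with median centring or neqc.

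With 1 array left out, member probes called higher and lower numbered 0 to 2 and 2 to 3 in MDA-MB-468, 1 to 2 and 2 to 3 in BT-549, 5 to 6 and 2 to 2 between the lines, and 0 to 2 and 1 to 2 for the difference of responses. Over all probes they were 1352 to 2200 and 1572 to 2235, 1221 to 2167 and 1529 to 2356, 5076 to 5725 and 4761 to 5406, and 510 to 716 and 511 to 785.

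Over the processing alternatives the counts of list genes called higher and lower in MDA-MB-468 ranged as follows. They were 0 to 3 and 0 to 3 for the kinases and phosphatases, 0 to 0 and 1 to 4 for the membrane partners, 2 to 3 and 0 to 5 for merlin and Hippo, 2 to 4 and 1 to 4 for FERM relatives, and 0 to 2 and 1 to 1 for hyaluronan genes. In BT-549 they were 0 to 0 and 0 to 2, 0 to 1 and 0 to 1, 0 to 2 and 2 to 6, 0 to 2 and 3 to 6, and 0 to 4 and 0 to 2 for the same lists in turn. The lower bounds came with median centring for most. With 1 array left out the counts stayed within 0 to 6.

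The replicate number as a block, over all groups or within lines, changed no member call of the siRNA in MDA-MB-468. Among list genes there, the block within lines added SLK (-0.32, adjusted p 0.022), CCN1 (-0.60, 0.0019), PTPN3 (0.29, 0.022), HAS3 and ADAM17, and it ended no call. Within lines, where 1140 probes were called higher and 1282 lower for the difference of responses, it added the CD44 probe 2 (adjusted p 0.017) and ROCK1 probe 1 (0.013) differences of responses, and NF2 probe 2 (0.042) and ROCK1 probe 2 (0.019) in BT-549. In BT-549, same-numbered samples correlated best with their own number for 1 of 3, so no pairing is claimed there.

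Differences near 0, called in no fit, changed sign. With median centring NF2 probe 3 and CD44 probe 3 in BT-549 were -0.02 and -0.04 (NF2 probe 3 -0.02 with neqc too), ROCK2 probe 1 between the lines was 0.09 and the RHOA difference of responses -0.06. With 1 array left out 19 such values crossed 0. In MDA-MB-468 EZR probe 2 ranged from -0.12 to 0.16, NF2 probe 4 from -0.09 to 0.02, ROCK1 probe 1 from -0.03 to 0.21 and ROCK1 probe 2 from -0.19 to 0.28. In BT-549 EZR probe 2 ranged from -0.16 to 0.02, NF2 probe 3 from -0.08 to 0.10, NF2 probe 4 from -0.04 to 0.07, CD44 probe 3 from -0.08 to 0.05, NHERF1 from -0.13 to 0.0 and RHOA from -0.14 to 0.01. Between the lines NF2 probe 1 ranged from -0.04 to 0.13, ROCK1 probe 1 from -0.04 to 0.14 and ROCK2 probe 1 from -0.08 to 0.02. For the difference of responses EZR probe 2 ranged from -0.21 to 0.06, NF2 probes 1 to 4 from -0.03 to 0.14, 0.0 to 0.11, -0.18 to 0.0 and -0.01 to 0.12, and RHOA from -0.01 to 0.13. Signals near background, as for NF2 and CD44 probe 3, limit what these arrays resolve.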
